A study of Mus musculus with 4 samples.

Results

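Interferon response and antigen presentation genes were compared between Ctrl and miR-128OE mouse hearts at postnatal day 7 (P7). The set holds 43 genes of 24454 in the count table, given as a list of symbols of interferon-induced and MHC class I genes, and all 43 had a row and enough reads to be tested among 14266 genes. RNA-seq was available from 2 heart libraries of each group. Ctrl mice carried miR-128 TetRE alone, a doxycycline-responsive miR-128 allele in the Rosa26 locus, and miR-128OE mice carried α-MHC-tTA together with miR-128 TetRE. The α-MHC promoter is active in cardiomyocytes (CMs), so that tTA induces miR-128 in these cells once doxycycline (Dox) is withdrawn. The stated background of all mice was C57BL/6, and it was not checked in these libraries. The libraries were made from hearts that hold many other cell types. The study made this comparison to find genes through which miR-128 acts on the cell cycle of CMs, and the labels do not say whether a library came from 1 heart or from a pool, so p-values measure the spread between these libraries only.

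Interferons are secreted proteins that warn cells of infection. Type I interferons bind the receptor IFNAR and type II interferon binds IFNGR, the kinases JAK1, TYK2 and JAK2 then phosphorylate STAT proteins, and a complex that holds STAT2 and IRF9 binds the interferon-stimulated response element (ISRE) in the promoters of target genes. The products of these genes detect or degrade viral RNA, block translation, attack the vacuoles of intracellular microbes, and load peptides onto MHC class I molecules at the cell surface. Many of them are also made at a low, tonic level in tissues without infection, the heart included.

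Most of these genes were lower in miR-128OE hearts. The set was chosen with earlier results of these data known, so its shares are a description and not a test. With edgeR's quasi-likelihood test and Benjamini-Hochberg adjustment over all 14266 tested genes, 27 of the 43 genes (62.8%) were lower at an adjusted p under 0.05, against 15.0% of all tested genes. Only 1 member, H2-D1, was higher, against 16.5% of all tested genes, and 15 passed the test in neither direction. In 35 members both miR-128OE libraries lay below both Ctrl libraries, which was the case for 34.4% of all tested genes, and in 2 members (Trim25 and H2-D1) both lay above, against 33.7% of all tested genes. The median log2 fold change was -0.62 over the members and -0.01 over all tested genes, and the members ranged from -1.64 for Ifi44 to 0.39 for H2-D1. Without miR-128OE replicate 1 the number of members called lower fell to 14, and without miR-128OE replicate 2 to 15, while over all genes the number called fell from 4490 to 1564 and 2285. The members' median was -0.64 and -0.63 in these fits. Without Ctrl replicate 1 it was -0.53 with 27 members called lower, and without Ctrl replicate 2 it was -0.70 with 31.

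**Figure D1:**
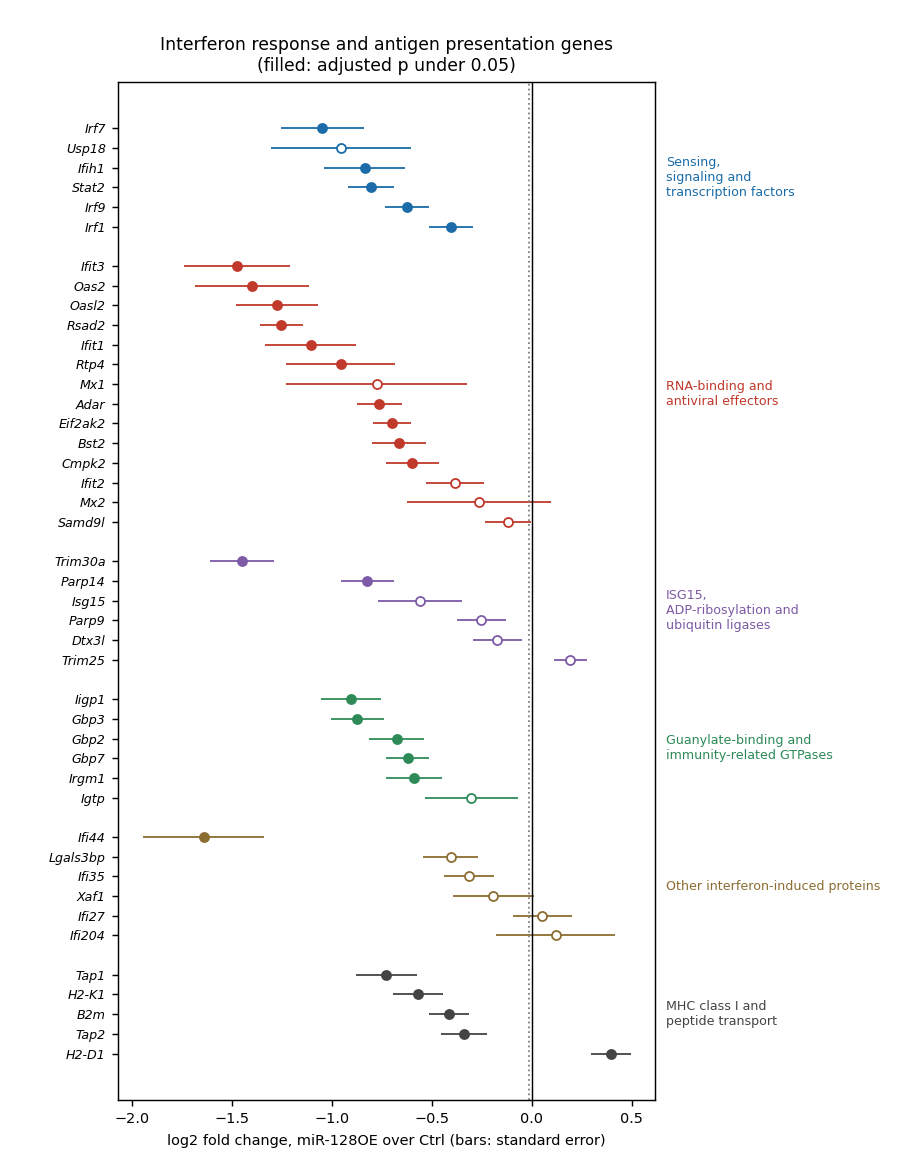
Log2 fold change of each member in miR-128OE over Ctrl hearts, with bars for the standard error, grouped by role. Filled points passed an adjusted p of 0.05 and the dotted line is the median of all tested genes (-0.01). 27 filled points lie to the left of 0 and 1, H2-D1, to the right.

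Library totals ranged from 8096870 counts (Ctrl replicate 2) to 14359838 counts (miR-128OE replicate 2), and the floor of detection was set at 3 counts, which covers counting error only. The sex of the hearts coincided with the group: Xist, which coats the X chromosome that is silenced in females, was counted 14543 and 11339 times in Ctrl against 94 and 132 times in miR-128OE libraries, and the Y-linked Ddx3y 13 and 7 times against 1442 and 1768 times. Sex and miR-128OE therefore cannot be told apart in any result here. The hairpin gene Mir128-2 was counted 0 times in either Ctrl library against 2 and 10 times under miR-128OE, and Mir128-1 had no count in any library. Mature miRNAs are too short for these libraries, so that these counts do not measure mature miR-128. Since whole hearts were sequenced, fewer cells of a type and less RNA per cell cannot be told apart.

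Promoters of the members show what they share in sequence. RefSeq promoters of GRCm38.p6, from 250 bases before to 50 bases after each start site, were available for 32 of the 43 members. The core of the ISRE was searched as GAAANNGAAA on both strands (TTTCNNTTTC on the other strand), and overlapping matches were kept. It was found in 15 of 32 members (46.9%), in 415 of 11250 tested genes with a promoter (3.69%) and in 87 of 1704 genes called lower (5.11%). Among the members it was found in 13 of 22 called lower (59.1%) and in 2 of 10 not called lower (20%), Isg15 and Igtp. The gamma-activated site (GAS) of STAT dimers, searched as TTCNNNGAA, was in 8 members (25%) and in 8.13% of tested genes. It was in 5 of 22 members called lower (22.7%) and in 3 of 10 not called lower (30%). A match is a description of these letters, not a measured binding site. The 11 members called lower with an ISRE match wholly before the start site are shown, with the match in capitals. Positions are counted from the start site as base 0. The first match in each window begins between -222 (Stat2) and -30 (Irgm1).
Rsad2: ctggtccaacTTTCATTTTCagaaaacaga
Ifit1: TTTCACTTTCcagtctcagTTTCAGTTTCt
Ifit3: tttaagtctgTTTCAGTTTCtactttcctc
Trim30a: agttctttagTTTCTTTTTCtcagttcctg
Gbp2: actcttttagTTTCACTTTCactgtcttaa
Gbp3: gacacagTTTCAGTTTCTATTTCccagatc
Gbp7: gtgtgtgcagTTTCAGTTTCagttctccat
Irgm1: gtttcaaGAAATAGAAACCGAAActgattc
Bst2: attccagGAAAATGAAACTGAAAggctgca
Stat2: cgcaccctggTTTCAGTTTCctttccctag
B2m: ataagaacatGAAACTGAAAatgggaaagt

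These windows of 30 bases lie on the strand of each gene. The window of Rsad2 is at chr12:26456553-26456582 (minus strand) with the match from -120 to -111, and that of Ifit1, with 2 matches between -104 and -76, at chr19:34640785-34640814 (plus strand). Gbp7 (chr3:142530273-142530302), Gbp3 (chr3:142559992-142560021) and Gbp2 (chr3:142620594-142620623) lie on the plus strand of 1 gene cluster, with matches that begin at -53, -45 and -59. The remaining windows are Ifit3 at chr19:34583397-34583426 (plus, from -122, the nearer to the start of 2 matches in this promoter), Trim30a at chr7:104465210-104465239 (minus, from -36), Irgm1 at chr11:48871428-48871457 (minus, from -30), Bst2 at chr8:71537580-71537609 (minus, from -130), Stat2 at chr10:128270266-128270295 (plus, from -222) and B2m at chr2:122147538-122147567 (plus, from -139). Gbp3, Irgm1 and Bst2 each carry a pair of overlapping matches, whereas Trim30a, Rsad2 and B2m carry a single match. Among members called lower, Ifih1 and Eif2ak2 had their match after the start site, from 32 and 18 bases.

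Of the genes that carry the interferon signal and switch on the response, 5 of 6 members were lower in miR-128OE hearts. This was 83.3%, against 15.0% of all tested genes. Stat2, the STAT protein of the type I pathway, had 648 and 639 normalized read counts in Ctrl libraries and 330 and 406 in miR-128OE libraries, a log2 fold change of -0.80 ± 0.12 (standard error, SE; adjusted p = 0.00108). Irf9, its DNA-binding partner, went from 475 and 435 to 283 and 308 (-0.62 ± 0.11, adjusted p = 0.003). In both genes the miR-128OE libraries lay below the Ctrl libraries, as in 34.4% of all tested genes. The miR-128OE libraries of Stat2 differed more from each other than its Ctrl libraries. Irf7, the transcription factor that amplifies type I interferon production, had 163 and 127 against 77.2 and 64.8 normalized counts (-1.05 ± 0.21, adjusted p = 0.00493). Ifih1, which encodes the sensor of long double-stranded RNA MDA5, had 197 and 137 against 95.05 and 95.04 (-0.84 ± 0.20, adjusted p = 0.0126). Irf1, a transcription factor induced mainly by type II interferon, fell least, from 368 and 365 to 283 and 271 (-0.41 ± 0.11, adjusted p = 0.0212). Usp18, the protease that removes ISG15 from proteins and damps IFNAR signaling, was not called, with 81.4 and 45.2 against 40.6 and 26.9 (-0.96 ± 0.35, adjusted p = 0.0634). Its fold change was near that of Irf7, but Ctrl replicate 2 lay close to miR-128OE replicate 1. It was at -1.28 and called without Ctrl replicate 2 (adjusted p = 0.00807) and at -0.43 without Ctrl replicate 1 (adjusted p = 0.436), and total counts, the exact test and no filter also called it (adjusted p from 0.00528 to 0.0459). Stat2 kept its call when any single library was left out, whereas Ifih1, Irf1, Irf7 and Irf9 each lost it without at least 1 miR-128OE library, with adjusted p from 0.0507 for Irf7 to 0.173 for Irf1, and Ifih1 also lost it without Ctrl replicate 1 (adjusted p = 0.0718). DESeq2 did not call Irf1 (adjusted p = 0.122).

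Antiviral effectors that bind RNA, change nucleotides or tether viruses were lower in 10 of 14 members (71.4%, against 15.0% of all tested genes). The strongest test result among all members was that of Rsad2, which encodes viperin, an enzyme that makes a chain-terminating nucleotide (chr12:26442743-26456452). It had 656 and 582 normalized counts in Ctrl and 266 and 255 in miR-128OE libraries, with a log2 fold change of -1.25 ± 0.11 and an adjusted p of 9.87e-05. Cmpk2, the neighboring gene (chr12:26469117-26479837) that encodes a nucleotide kinase working upstream of viperin, had 241 and 246 against 167 and 155 (-0.60 ± 0.13, adjusted p = 0.00915). In both genes of this locus both miR-128OE libraries lay below both Ctrl libraries, as in 34.4% of all tested genes. The fall was larger for Rsad2, though the difference between the genes was not tested.

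The Ifit genes encode proteins that bind viral RNA by its 5′ end. Of the 3 members of this family 2 were called lower, against 15.0% of all tested genes. Ifit3 had 71.3 and 73.5 against 26.7 and 25.2 normalized counts (-1.47 ± 0.27, adjusted p = 0.00316), with replicates that were nearly equal. Ifit1 had 176 and 129 against 83.2 and 60.6 (-1.11 ± 0.23, adjusted p = 0.00635), and its span overlaps the protein-coding gene Ifit1bl1 by 9121 bases. Ifit2 had 254 and 325 against 214 and 225 and was not called (-0.39 ± 0.15, adjusted p = 0.0724). It was at -0.56 and called without Ctrl replicate 1 (adjusted p = 0.00721) and at -0.21 without Ctrl replicate 2, and upper-quartile factors, total counts and no filter called it (adjusted p from 0.0324 to 0.0459). All 3 lie within chr19:34550550-34650009. In all 3 both miR-128OE libraries were below both Ctrl libraries, which was the case for 34.4% of all tested genes.

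Oas2, which makes the second messenger that activates RNase L, and Oasl2, a relative of it, were among the members with the largest falls. Oas2 had 65.8 and 60.8 against 20.8 and 26.9 normalized counts (-1.40 ± 0.29, adjusted p = 0.00609). Oasl2 had 251 and 175 against 98.0 and 80.7 (-1.27 ± 0.21, adjusted p = 0.00187), the Ctrl libraries differing more than the miR-128OE libraries. Enzymes that act on double-stranded RNA fell less but with small errors. Eif2ak2, which encodes the kinase PKR that stops translation, had 820 and 759 against 510 and 466 (-0.70 ± 0.09, adjusted p = 0.000803). Adar, the enzyme that edits adenosine to inosine, had 676 and 773 against 392.1 and 457 (-0.76 ± 0.11, adjusted p = 0.00119). For these 4 genes both miR-128OE libraries lay below both Ctrl libraries, as in 34.4% of all tested genes.

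Bst2, the tetherin that holds budding virus at the membrane, had 517 and 403 against 281 and 303 normalized counts (-0.66 ± 0.14, adjusted p = 0.00597). Rtp4, a receptor transporter protein that also restrains viral replication, had 148 and 86.2 against 55.4 and 67.3 (-0.96 ± 0.27, adjusted p = 0.0255), and this call rested on Ctrl replicate 1, since it was at -0.48 with an adjusted p of 0.204 without it, and DESeq2 gave an adjusted p of 0.0503. The Mx genes encode dynamin-like GTPases that trap viral components, and neither was called. Mx1 had only 21, 9, 9 and 12 counts in the 4 libraries (-0.78 ± 0.45, adjusted p = 0.221), so that a change of this size was not detectable at this depth. Mx2 had 46.6 and 42.4 against 23.8 and 49.6 normalized counts (-0.27 ± 0.36, adjusted p = 0.609), with overlapping groups. Samd9l, a restrictor of poxviruses, had 430 and 506 against 451 and 406 (-0.12 ± 0.12, adjusted p = 0.464), and its 95% confidence interval from -0.38 to 0.14 leaves out a fall as large as those of Eif2ak2 and Adar. Leaving out a miR-128OE library ended the calls of Rtp4 and Cmpk2 in either case (adjusted p from 0.0604 to 0.166), those of Oas2 and Bst2 without replicate 1 (0.0755 and 0.0765) and that of Ifit1 without replicate 2 (0.0617).

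**Figure D2:**
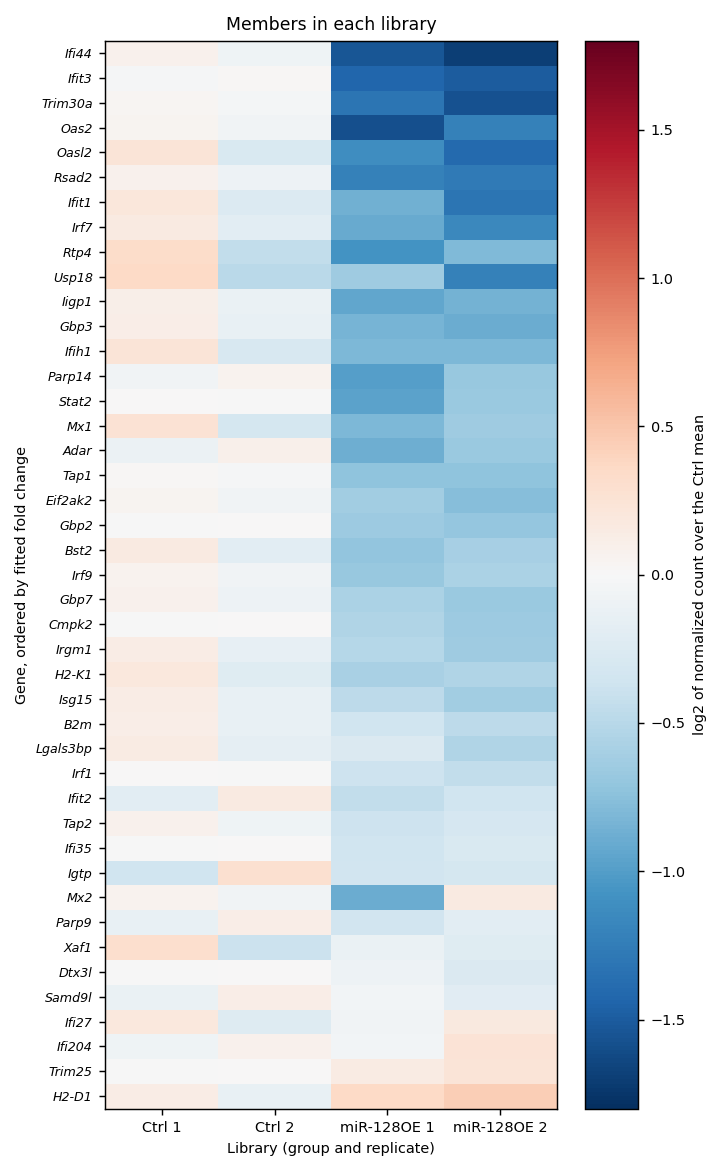
Log2 of the normalized read count over the mean of the Ctrl libraries, for the 43 members (rows, ordered by fitted fold change) in the 4 libraries (columns), with 0.5 added to each count. Blue cells are below the Ctrl mean, and the medians over members are 0.076 and -0.080 for Ctrl replicates 1 and 2 and -0.63 and -0.65 for miR-128OE replicates 1 and 2.

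Among genes of the ubiquitin-like modifier ISG15, ADP-ribosylation and ubiquitin ligases, 2 of 6 members were called lower (33.3%, against 15.0% of all tested genes). Trim30a, a mouse TRIM ligase that limits inflammatory signaling (chr7:104409025-104465193), had 241 and 229 against 94.1 and 79.1 normalized counts, a log2 fold change of -1.45 ± 0.16 (adjusted p = 0.000293), and its groups were far apart. Parp14, a mono-ADP-ribosyltransferase, had 415 and 455 against 218 and 271 (-0.82 ± 0.13, adjusted p = 0.00184). Isg15 itself had 111 and 91.9 against 73.3 and 65.6 (-0.56 ± 0.21, adjusted p = 0.071), below Ctrl in both libraries but not called. It was called with total counts (adjusted p = 0.0402), by the exact test (0.0481), with the GC and length offset (0.0272) and without Ctrl replicate 2 (0.038). Parp9 and its partner ligase gene Dtx3l share a start region, with spans that overlap by 558 bases, so that their reads may not be fully separated. Parp9 had 383 and 454 against 331 and 367 (-0.25 ± 0.12, adjusted p = 0.143, but 0.0314 without Ctrl replicate 1) and Dtx3l had 299 and 302 against 283 and 251 (-0.17 ± 0.12, adjusted p = 0.306). Trim25, the ligase that activates the RNA sensor RIG-I, stood apart in direction with 776 and 784 against 865 and 915 (0.19 ± 0.08, adjusted p = 0.107). It was not called, except with the GC and length offset (0.28, adjusted p = 0.0275), and this role thus held both a gene near the lower end of the set and a gene above Ctrl in both libraries.

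GTPases that attack vacuoles and microbes were lower in 5 of 6 members (83.3%, against 15.0% of all tested genes). The guanylate-binding proteins Gbp2, Gbp3 and Gbp7 are encoded next to each other within chr3:142530336-142638008. Gbp2 had 225 and 226 against 144 and 139 normalized counts (-0.68 ± 0.14, adjusted p = 0.006). Gbp3 had 390.5 and 329 against 202 and 193 (-0.87 ± 0.13, adjusted p = 0.00128). Gbp7 had 573 and 510.2 against 364 and 342 (-0.62 ± 0.11, adjusted p = 0.00256). These neighbors carried ISRE matches at nearly the same distance from their start sites. In each of them both miR-128OE libraries lay below both Ctrl libraries, as in 34.4% of all tested genes. Of the immunity-related GTPases, Iigp1, which coats the vacuole of Toxoplasma, had 256 and 219 against 124 and 131 (-0.90 ± 0.15, adjusted p = 0.00207). Irgm1, a regulator of the other GTPases of this family, had 339 and 277 against 216 and 197 (-0.59 ± 0.14, adjusted p = 0.0117). Igtp, also called Irgm3, had 94.2 and 148 against 95.05 and 97.6 and was not called (-0.30 ± 0.23, adjusted p = 0.351). Its groups overlapped since Ctrl replicate 1 was the lowest library, and without Ctrl replicate 1 it was called at -0.62 (adjusted p = 0.033). Gbp2 and Irgm1 lost their calls when either miR-128OE library was left out, with adjusted p from 0.0529 to 0.113.

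Other interferon-induced proteins behaved unevenly, with 1 of 6 members called lower (16.7%), near the 15.0% of all tested genes. Ifi44, a GTPase-like protein that restrains virus growth (chr3:151730922-151749910), had the largest fall of all members, from 58.5 and 52.3 to 18.8 and 16.8 normalized counts (-1.64 ± 0.30, adjusted p = 0.00367). It rests on 19 and 20 counts in the miR-128OE libraries. Lgals3bp, a secreted galectin-binding glycoprotein, was just outside the threshold with 494 and 400.0 against 372 and 308 (-0.41 ± 0.14, adjusted p = 0.0502). It was called under 6 of the 8 alternatives that keep all libraries, and it was at -0.54 and called without Ctrl replicate 2 (adjusted p = 0.00554) but at -0.24 without Ctrl replicate 1. Ifi35, a signaling modulator, had 256 and 257 against 201 and 211 (-0.32 ± 0.12, adjusted p = 0.0824), and was called with total counts and with the GC and length offset (adjusted p = 0.033 and 0.0332). The remaining genes overlapped between groups. Xaf1, a proapoptotic protein, had 277 and 171 against 207 and 193 (-0.19 ± 0.20, adjusted p = 0.496). Ifi27, a small mitochondrial protein whose span overlaps Ifi27l2a by 6057 bases, had 455 and 339 against 381 and 449 (0.05 ± 0.15, adjusted p = 0.82). Ifi204, a DNA-binding protein of the Ifi200 family, had 32.9 and 36.7 against 33.7 and 41.2 (0.12 ± 0.30, adjusted p = 0.792). Ifi27 turned in direction with total-count scaling (-0.048), with the GC and length offset (-0.079) and without Ctrl replicate 2 (-0.13) or miR-128OE replicate 2 (-0.053). Xaf1 turned without Ctrl replicate 1 (0.22) and was called lower without Ctrl replicate 2 (-0.47, adjusted p = 0.0204), and Ifi204 turned without miR-128OE replicate 2 (-0.025).

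Genes of MHC class I presentation were all called, but not in the same direction. Of 5 members 4 were lower and 1 higher, against 15.0% and 16.5% of all tested genes. B2m, the light chain shared by all class I molecules, had 2924 and 2439 normalized counts in Ctrl and 2086 and 1942 in miR-128OE libraries (-0.42 ± 0.10, adjusted p = 0.0118). The span of B2m overlaps the protein-coding gene Patl2 by 5396 bases. H2-K1, a classical heavy chain (chr17:33996012-34000619), had 1202 and 906 against 703 and 724 (-0.57 ± 0.12, adjusted p = 0.00789). H2-D1, the other classical heavy chain measured (chr17:35263094-35267497), went the other way with 1107 and 919 against 1298 and 1372 (0.39 ± 0.10, adjusted p = 0.0157). The heavy chains were thus at similar levels in Ctrl hearts and apart in miR-128OE hearts. Both miR-128OE libraries lay below Ctrl for H2-K1 and above for H2-D1, as for 34.4% and 33.7% of all tested genes. Class I heavy chain genes are near-identical in long stretches, and how reads that fit several of them were counted is not given in the sources used here, so the values of H2-K1 and H2-D1 are uncertain. Tap1 and Tap2 encode the transporter that carries peptides into the endoplasmic reticulum. Tap1 had 189 and 182 against 112 and 113 (-0.73 ± 0.15, adjusted p = 0.00658), and Tap2 had 401 and 360.4 against 295 and 309 (-0.34 ± 0.11, adjusted p = 0.047). Tap2 was the member nearest to the threshold on its inner side. All 5 genes lost their calls when either miR-128OE library was left out, with adjusted p from 0.0513 (Tap1) to 0.29 (Tap2), and Tap2 also without Ctrl replicate 1 (adjusted p = 0.152). With total-count scaling H2-D1 was no longer called (0.29, adjusted p = 0.0575), and Tap2 was not called by DESeq2 (adjusted p = 0.215) or with the GC and length offset (adjusted p = 0.0536).

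**Figure D3:**
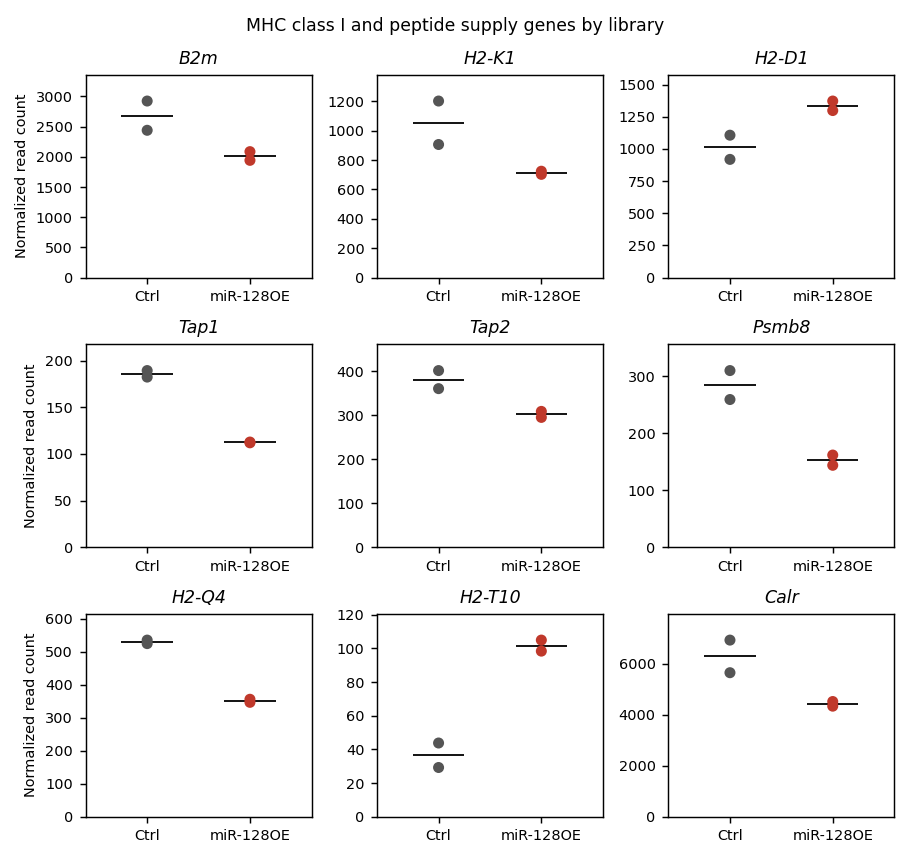
Normalized read counts of MHC class I and peptide supply genes in each library (points) with the group means (lines), each panel starting at 0. The panels are the 5 members of this role and the 4 genes of the antigen processing list with the smallest p. Both miR-128OE points lie below both Ctrl points in 7 panels and above them for H2-D1 and H2-T10. The 4 list genes were picked by p, so that their separation follows largely from that choice. Of all 17 tested genes of that list, 7 lay below (41.2%) and 3 above, against 34.4% and 33.7% of all tested genes.

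The genes differed widely in level, so that the fall was not of the same weight in each. On a scale of reads per kilobase of the longest transcript and per library size (RPKM), B2m was at 265 in Ctrl hearts, Bst2 at 49.3, H2-K1 at 47.8 and H2-D1 at 40.9, while Ifi204 was at 1.29 and Ifi44 at 1.16. H2-K1 was above H2-D1 in Ctrl hearts and below it in miR-128OE hearts (32.3 against 53.9), but in Ctrl the libraries of these genes overlapped. The Ctrl libraries also differed from each other: 30 of 43 members were higher in Ctrl replicate 1 than in replicate 2, with a median log2 ratio of 0.16, compared with -0.02 over all tested genes. Usp18, Rtp4 and Xaf1 differed most between these libraries in that direction, whereas 21 of 43 members were higher in miR-128OE replicate 2 than in replicate 1.

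The interferons themselves were listed at or near 0 counts. Of 9 interferon genes in the table, 8, Ifnb1 among them, had 0 counts in every library, and Ifng had 2 counts in miR-128OE replicate 1 only. Such a 0 sets no limit on interferon RNA, since the globin genes Hba-a1, Hba-a2, Hbb-bs and Hbb-bt were also listed at 0 in all 4 heart libraries, in which the red blood cell gene Alas2 had 215 to 899 counts, and it says nothing of earlier time points. Of 15 genes of receptors, kinases and feedback inhibitors, 3 were lower (20%) and 2 were higher, near the 15.0% and 16.5% of all tested genes. Their median log2 fold change was -0.01. Ifnar1, a chain of the type I receptor, had 1392 and 1474 against 1051 and 1037 normalized counts (-0.46 ± 0.08, adjusted p = 0.00273). Tyk2, the kinase that binds it, had 497 and 548 against 349 and 352 (-0.57 ± 0.10, adjusted p = 0.00339). Both genes had little spread between miR-128OE libraries, but the type I arm did not fall as a whole. The other receptor chain Ifnar2 (0.0022 ± 0.10, adjusted p = 0.99) and Jak1 (-0.0086 ± 0.08, adjusted p = 0.943), named after their values were seen, were not called. Stat3, a STAT protein activated by the IL-6 family, was higher, with 1106 and 1022 against 1355 and 1378 (0.36 ± 0.08, adjusted p = 0.00966). Without miR-128OE replicate 1 none of the 15 genes was called lower, and Ifnar1 and Tyk2 had adjusted p of 0.0508 and 0.0507.

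Of 18 tested nucleic acid sensors and adaptors, 3 were lower and none was higher, near the background of 15.0%, at a median of -0.25. Ddx58, which encodes RIG-I, had 389 and 363 against 248 and 281 normalized counts (-0.51 ± 0.12, adjusted p = 0.0111). Cgas, the sensor of cytosolic DNA, had 117 and 94.7 against 69.3 and 49.6 (-0.85 ± 0.24, adjusted p = 0.0244), and Samhd1, which depletes nucleotides, had 442 and 473 against 376 and 326 (-0.38 ± 0.11, adjusted p = 0.0308). Ikbke, a kinase of IRF3 and IRF7, had 121 and 110.2 against 75.2 and 88.3 and was not called (-0.50 ± 0.19, adjusted p = 0.0776). Leaving out miR-128OE replicate 1 or 2 left 0 or 1 of these sensors called lower, and DESeq2 called 1.

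Interferon-induced genes outside the 43 moved much as the members did. This second list was also chosen with earlier results of these data known, so it is no independent test of the members. Of its 43 tested genes, 19 were lower (44.2%) against 15.0% of all tested genes, and 2 were higher against 16.5%. Their median log2 fold change was -0.57. Cxcl9, the chemokine that draws T cells, fell from 103 and 84.8 to 30.7 and 22.7 normalized counts (-1.83 ± 0.27, adjusted p = 0.00126). Trim34a, a TRIM ligase, had 148 and 170 against 44.6 and 64.8 (-1.52 ± 0.22, adjusted p = 0.00116). Sp100 and Parp12 belong to nuclear bodies and to the ADP-ribosyltransferases. Sp100 had 441 and 414 against 255 and 256 (-0.74 ± 0.11, adjusted p = 0.0012), and Parp12 had 479 and 476 against 302 and 299 (-0.67 ± 0.10, adjusted p = 0.00145). These 4 genes had the smallest p of the list, so that their lack of overlap between groups follows largely from that choice. Over the whole list both miR-128OE libraries lay below both Ctrl libraries in 33 genes (76.7%), against 34.4% of all tested genes. Without miR-128OE replicate 1 the count of genes called lower was 7, and without replicate 2 it was 9.

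**Figure D4:**
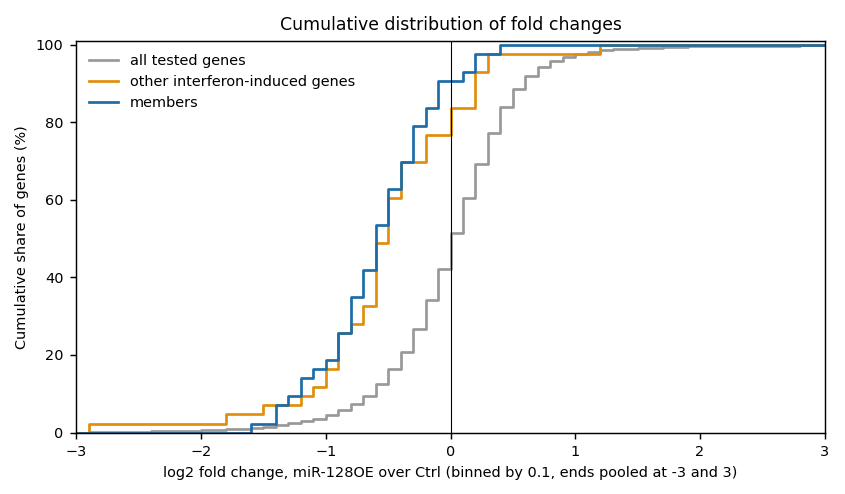
Cumulative share of genes by log2 fold change in bins of 0.1, for the 43 members, 43 other interferon-induced genes and 14266 tested genes. The curves of the members and of the other induced genes lie to the left of that of all genes, with medians of -0.62 and -0.57 against -0.01.

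Genes around MHC class I did not all follow the members. Of 17 tested genes of antigen processing and other class I genes, 5 were lower (29.4%) and 2 were higher, against 15.0% and 16.5% of all tested genes. Their median log2 fold change was close to 0 (-0.0045). Psmb8, a catalytic subunit of the immunoproteasome, had 259 and 309 against 144 and 161 normalized counts (-0.89 ± 0.15, adjusted p = 0.00215). H2-Q4, a nonclassical heavy chain, had 535 and 524 against 347 and 356 (-0.59 ± 0.10, adjusted p = 0.00215), and Calr, a chaperone of class I folding, had 6935 and 5655 against 4342 and 4523 (-0.51 ± 0.11, adjusted p = 0.00658). H2-T10, another nonclassical heavy chain, was higher with 29.3 and 43.8 against 105 and 98.4 (1.51 ± 0.26, adjusted p = 0.00251). Like H2-D1, it is a gene with near-identical copies, and H2-Q6 and H2-Q7 were listed at 0 in all libraries. Nlrc5, the transactivator of class I genes, was lower at 25, 22, 9 and 13 counts (-1.40 ± 0.41, adjusted p = 0.0288), and it was named after its values were seen. With either miR-128OE library left out, 2 of these genes were called lower. None of 6 tested MHC class II genes was called by edgeR, 0 had an unadjusted p under 0.05 and DESeq2 called 0 lower. Cd74, the invariant chain, had 138 and 172 against 136 and 147 (-0.12 ± 0.17, adjusted p = 0.627), H2-Eb1 had an adjusted p of 0.394, H2-DMa of 0.552 and Ciita, the class II transactivator, of 0.834.

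The Ifi200 genes of chromosome 1, a family of DNA-binding proteins, held the most extreme values. Mndal (chr1:173857215-173880382) fell from 515 and 291 counts to 34 and 53 counts, a log2 fold change of -3.48 ± 0.17 (adjusted p = 3.42e-06). Ifi202b (chr1:173962569-173982844) had no count in either Ctrl library but 23 and 39 counts under miR-128OE, at least 7.96-fold higher when 3 counts per Ctrl library are taken as the floor. Ifi211 had 11, 8, 5 and 2 counts (-1.69 ± 0.65, adjusted p = 0.0758) and Ifi209 had 15, 12, 5 and 11 (-1.05 ± 0.50, adjusted p = 0.142). Neighboring genes of this family are near-identical in part, so that counts may be shared between them. The cause of these extreme values was not tested. Whether the groups shared the same genetic background at this locus was not tested either. The member Ifi204 belongs to this family and was at 0.12 on the log2 scale.

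Sites for miR-128-3p, the miRNA that was overexpressed, were described in the 3′UTRs of the members. The mature miRNA, the same from Mir128-1 (chr1:128202404-128202424) and Mir128-2 (chr9:112118644-112118664), is shown with its seed, bases 2 to 8, in capitals.
miR-128-3p: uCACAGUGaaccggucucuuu

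A site was a stretch reading CACTGTG or ACTGTGA within the 3′UTR, for which the longest in GENCODE M21 was taken. Of 42 members with such a 3′UTR, 15 held a site (35.7%), as did 4475 of 13466 tested genes (33.2%) and 740 of 1980 genes called lower (37.4%). Of the 27 members called lower, 14 held a site (51.9%), and of 15 not called lower, only Trim25 did (6.67%). The median 3′UTR was 1152 bases long in members called lower and 400 bases in the others, compared with 1375 bases over all tested genes, so that length moved with the share of sites and its part was not tested. The members with an 8mer (both matches joined) and the site of Rsad2 nearest to its stop codon are shown, with the site in capitals.
Ifih1: caagctcctgtCACTGTGActaccacacag
Gbp2: ttttatctcccCACTGTGAcaacatgtctt
Gbp7: gggctcaggaaCACTGTGAaagaggaaaca
Rsad2: cacacatcactCACTGTGctgactcaagct

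These sites lie at chr2:62597509-62597516 (Ifih1, minus strand), chr3:142637926-142637933 (Gbp2, plus), chr3:142547276-142547283 (Gbp7, plus) and chr12:26452232-26452238 (Rsad2, minus), all in 3′UTR exons. Rsad2 held 4 sites in a 3′UTR of 3613 bases and Oas2 held 2 in 1625 bases. Several members with large falls held none, among them Ifi44, Trim30a and Oasl2. A match does not show that miR-128 binds there.

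Markers of immune cells were examined since such cells express many of these genes. Over all tested genes, the background for each marker list here, 15.0% were lower and 16.5% higher. Of 37 markers of macrophages, T cells, B cells, NK cells, plasmacytoid dendritic cells and neutrophils, 27 were tested. Of these, 2 were lower (7.41%) and 1 was higher, at a median log2 fold change of -0.12. Their summed normalized counts ranged from 2967 to 3027 in Ctrl and from 2615 to 2689 in miR-128OE libraries. All 12 macrophage markers were tested, and their sum was 1889 and 1463 in Ctrl and 1547 and 1541 in miR-128OE libraries. These groups overlapped, although Mertk was lower (-0.77 ± 0.20, adjusted p = 0.0161) and Cd14 higher (0.93 ± 0.27, adjusted p = 0.0264). T cell markers summed to 84.1 and 69.3 against 67.3 and 70.7, and 4 of 7 were tested, with none called. Plasmacytoid dendritic cells are strong producers of type I interferon, and their 3 markers did not share a direction. Siglech stood at 14 and 5 counts in Ctrl against 2 and 2 and Ccr9 at 10 and 3 against 4 and 5, too few to be tested. Spib was not called, at 8 and 10 against 32 and 25 counts (1.35 ± 0.46, adjusted p = 0.0518). NK cell markers summed to 35.7 and 52.3 against 14.9 and 14.3, and Eomes, the 1 marker of this list that was tested, was lower (34, 33, 7 and 11 counts, adjusted p = 0.00428). Gzma had 4, 4, 8 and 3 counts, and the defining markers Ncr1 and Klrb1c were at 2 counts or fewer in every library. The part of these cell types in the fall of the members was not tested. Markers of CMs, the cells that carry the transgene, were abundant, and 2 of 8 were lower and 2 higher (median 0.20). Of 8 endothelial markers 2 were lower and 2 higher (median -0.04), and of 8 fibroblast markers 1 was lower and 1, Lum, higher (0.63 ± 0.19, adjusted p = 0.0286). The red blood cell gene Alas2 was higher, with 487 and 215 against 831 and 899 counts (1.05 ± 0.15, adjusted p = 0.00106). The part of these cells was not tested either.

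**Figure D5:**
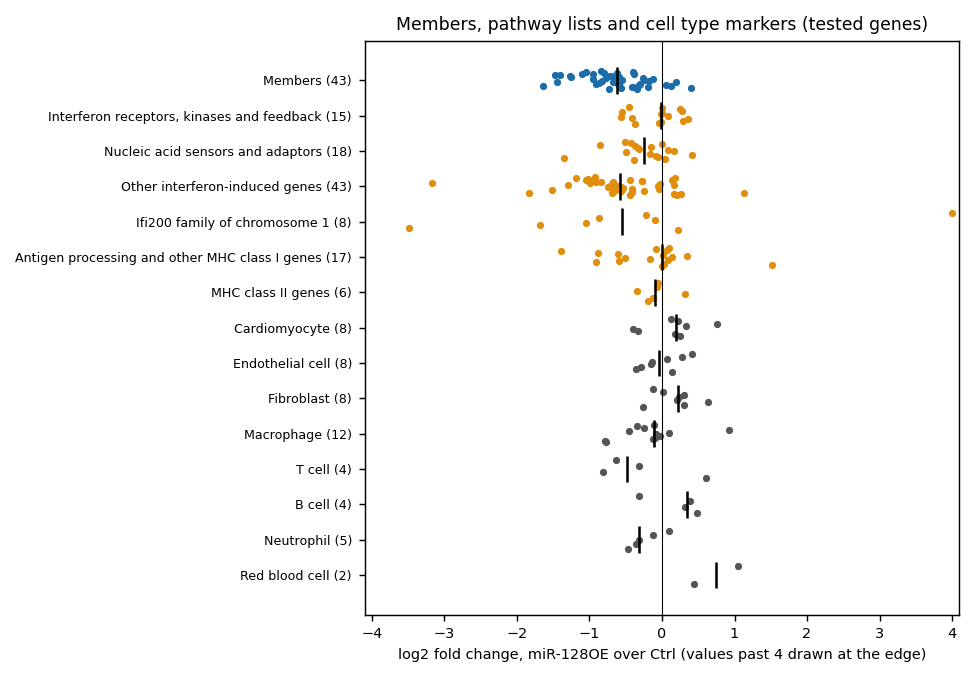
Log2 fold change of each tested gene (points) with the list median (black bars) for the members, pathway lists and cell type markers, with the number of tested genes in brackets and values past 4 drawn at the edge. The members and the other interferon-induced genes have medians of -0.62 and -0.57, whereas the macrophage list is at -0.12 and the receptor list at -0.01.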

How the data were processed

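Total RNA of P7 hearts was sequenced from 2 Ctrl and 2 miR-128OE libraries. The authors aligned the reads to mm10 with TopHat2, counted those on known genes with Bioconductor packages and deposited raw counts per Entrez gene. Gene models, strand handling and the treatment of reads with several matches are not given in the sources used here. The spans of 9 members overlap a protein-coding gene, so that their reads may not be fully separated. Of 24454 identifiers, 24374 matched a RefSeq symbol. Counts were tested with edgeR 4.0.16 in R 4.3.3, after the study's use of edgeR. The settings were filterByExpr, TMM factors, quasi-likelihood test, Benjamini-Hochberg adjustment over 14266 genes and threshold 0.05. On counts simulated with the same dispersion for all genes, the test recovered 88.9% of genes at a log2 change of 1 and 99% at 2. False calls made up 5.1% of calls. Smaller changes, such as the members' median, were not simulated. Standard errors were taken as the log2 fold change divided by the root of F. Normalized counts are scaled by TMM to the mean effective library size. Libraries of 8096870 to 14359838 counts gave a floor of 3 counts. Alternatives were other scalings, filters, DESeq2 1.42.0, edgeR's exact test, a GC and length offset, and leaving out each library. Members and lists were chosen with earlier results of these data known. All members were named, and in each pathway list the 4 tested genes with the smallest p, of which 1 is not reported here. Sequences are from RefSeq (GRCm38.p6) and GENCODE M21.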

Additional observations from a re-analysis of the deposited data

How the results depend on the processing

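Of 28 members called, 28 kept their direction under all 12 alternatives, 24 kept their call under the 8 alternatives that keep all libraries and 12 under all 12. The count of members called higher was 0 with total counts and 2 with the GC and length offset. The members' median log2 fold change moved to -0.67 with upper-quartile factors and to -0.72 with total counts. There the median of all genes was -0.06 and -0.11. Both moves were larger than the pooled standard deviation between replicates of the members' median log2 normalized count (0.036). They were smaller than the members' median log2 ratio of 0.16 between the Ctrl replicates. Total counts also moved the share of higher genes among all calls from 52.3% to 35.3% (1611 higher, 2948 lower, against 2347 and 2143). DESeq2 called 1697 higher and 1317 lower. Leaving out 1 library gave 1564 to 5038 genes called, 0 to 1 members called higher, 14 to 31 called lower and a median of -0.70 to -0.53. Directions that turned belonged to genes that were not called: Ifi27 was at -0.048 with total counts and -0.079 with the GC and length offset. Without single libraries the range was -0.13 to 0.30 for Ifi27, -0.47 to 0.22 for Xaf1, -0.62 to 0.037 for Igtp, -0.89 to 0.16 for Mx2 and -0.025 to 0.26 for Ifi204. For class II genes it was -0.60 to 0.031 (H2-Eb1), -1.02 to 0.92 (Ciita) and -0.28 to 0.041 (Cd74). The cause was not tested. Depth limits members under about 20 counts, Mx1 above all. No paired analysis was possible because the replicate numbers were given in accession order and pair no libraries.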

Other observations

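Families of the members extend beyond the 43 genes, and the genes given here were named after their values were seen. The genes with values in this section belong to the list of other interferon-induced genes above and were already counted there. Of 5 other guanylate-binding genes, 4 were lower and none higher, against 15.0% and 16.5% of all tested genes. Gbp4 had 241 and 260.1 normalized counts in Ctrl and 121 and 145 in miR-128OE libraries (log2 fold change -0.91 ± 0.15, SE, adjusted p = 0.00205 by edgeR), and Gbp6 had 86.0 and 96.1 against 42.6 and 47.9 (50.1% of Ctrl, adjusted p = 0.0106). Gbp5 had 104 and 94.7 against 48.5 and 62.2 (-0.84 ± 0.23, adjusted p = 0.0201), and Gbp8 had 31, 16, 6 and 0 counts (adjusted p = 0.0114). Gbp9 had 400 and 452 against 440 and 396 and was not called (-0.02 ± 0.11, adjusted p = 0.896). Of 5 other oligoadenylate synthetase genes, 4 were tested and 1 was lower. Oas1b had 74.99 and 73.5 against 31.7 and 33.6 (-1.18 ± 0.25, adjusted p = 0.0075), whereas Oas3 had 94.2 and 91.9 against 95.05 and 115 (0.18 ± 0.19, adjusted p = 0.515), and neither Oas1a (-0.92 ± 0.49, adjusted p = 0.177) nor Oasl1 (-0.92 ± 0.36, adjusted p = 0.0782) was called.

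The ISG15 system beyond Isg15 and Usp18 was uneven as well. Uba7, the activating enzyme, had 539 and 464 against 284 and 333 normalized counts (-0.70 ± 0.12, adjusted p = 0.00293), while Ube2l6, the conjugating enzyme, had 351 and 237 against 318 and 350 (0.16 ± 0.17, adjusted p = 0.494). Isg20, an interferon-induced exonuclease, was higher in miR-128OE libraries, with 43.9 and 19.8 against 80.2 and 67.3 (1.14 ± 0.34, adjusted p = 0.0305).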
